A study of Rattus norvegicus with 8 samples.

Results

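The EGF receptor family consists of the receptor tyrosine kinases Egfr, Erbb2, Erbb3 and Erbb4, and its ligands include Areg (amphiregulin), Ereg (epiregulin), Hbegf (heparin-binding EGF-like growth factor), Tgfa (transforming growth factor alpha), Egf and Btc (betacellulin). These 4 receptors and 6 ligands were followed at the mRNA level on the Arraystar rat lncRNA array, which also carries mRNA probes. A probe was assigned to a member when the RefSeq accession printed for it belonged to that gene. All 10 members were found, out of 13903 named genes on the array, and each was measured by 1 probe in 1 spot per array. Lung tumors and matched normal lung tissues came from male F344 rats treated with NNK, a nitrosamine of tobacco smoke, and were taken at week 95 after treatment (3 arrays each). Blood of the same week came as 1 sample of the control group and 1 of the NNK group (1 array each), and the number of rats behind a sample is not given in the sources used here. The tumors were described as moderately differentiated adenocarcinoma. The normal lung belongs to the treated rats, so that effects of NNK shared by tumor and normal lung cannot be seen in these data. All samples are whole tissue or clotted blood, in which fewer cells of a type and less RNA per cell cannot be told apart.

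The ligands are made as membrane proteins and are released from the cell surface by proteases of the ADAM family. A released ligand joins receptors into pairs, which phosphorylate each other and signal through the Ras and PI3K routes. Egfr binds Egf, Tgfa, Areg, Ereg, Hbegf and Btc, and Erbb4 binds several of these and the neuregulins. Erbb2 has no known ligand and acts as a partner, and Erbb3 has little kinase activity of its own. In the lung, Egfr is known for its part in epithelial repair and as an oncogene in adenocarcinoma.

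Signals are given as log2 processed signals after quantile normalization within the 6 lung arrays, and a probe was tested when its spot was well above background on at least 3 of them. Of the 10 members, 7 passed, and each of the 7 was well above background on all 6 lung arrays. Erbb3, Erbb4 and Btc did not pass. The scanning software marks spots as outliers, and it marked 4.92% to 8.62% of the spots above background on the normal lung arrays but 15.9% to 25.3% on the lung tumor arrays. Marked spots were left out of the main comparison, which left too few values for Areg and Tgfa. For these ligands the values with marked spots kept are given. The 3 normal lung arrays and tumor array 1 shared a scan time, and tumor arrays 2 and 3 shared another, so most of the tumor group differs from normal lung in the scan too. Tumor arrays 2 and 3 differed by less than the noise estimated from repeated spots (ratio of observed to expected mean squared difference 0.582), and pairs of normal lung arrays had ratios of 0.816 to 1.37, against 6.23 and 6.43 for tumor array 1 beside tumor arrays 2 and 3. The sources call the tumors independent and the normal lung matched, without giving the number of animals, so the p values measure the spread between these arrays. In 1 alternative near-identical arrays were averaged, the 3 normal lung arrays into 1 sample and tumor arrays 2 and 3 into another. Normal lung then had no replicate, so the p values of that fit have no spread within normal lung behind them. Calls lost in it are named beside the members and the pathway genes tested with marked spots left out. For Usp8 and Myc, called only with marked spots kept, the counts of their lists are given instead. Of the surfactant and other type 2 alveolar cell markers, all 7 on the array were above background on lung arrays, and all 5 red blood cell markers on the array were above background on both blood arrays. Normal lung arrays also carried signal of liver genes, which are given beside Egf.

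To relate the expression to the start of the genes, bases upstream of the transcription start were read from RefSeq (rat assembly GRCr8), in which 8 of the 10 members had an entry. Areg, Egfr and Egf are shown because the first is the ligand with the largest rise, the second the receptor that rose and the third the ligand that fell. Capitals mark matches to TGACGTCA (the cAMP response element, its own reverse complement), GGGCGG or CCGCCC (the GC box on either strand) and TATAAA (the TATA motif, also searched as TTTATA). The windows end at the base before the start site, except that of Egf, which ends where the annotated gene begins.
Areg, chr14:17265642-17265891, minus strand: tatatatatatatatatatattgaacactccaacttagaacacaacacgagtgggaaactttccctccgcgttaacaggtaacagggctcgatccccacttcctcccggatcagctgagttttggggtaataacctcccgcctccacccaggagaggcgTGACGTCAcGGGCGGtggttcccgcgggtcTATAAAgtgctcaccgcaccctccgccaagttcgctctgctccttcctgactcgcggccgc
Egfr, chr14:95378376-95378625, plus strand: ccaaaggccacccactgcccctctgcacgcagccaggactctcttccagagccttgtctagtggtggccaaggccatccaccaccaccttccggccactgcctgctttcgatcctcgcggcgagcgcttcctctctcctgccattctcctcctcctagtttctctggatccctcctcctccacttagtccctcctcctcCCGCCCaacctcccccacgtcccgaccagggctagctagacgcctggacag
Egf, chr2:220976332-220976547, minus strand: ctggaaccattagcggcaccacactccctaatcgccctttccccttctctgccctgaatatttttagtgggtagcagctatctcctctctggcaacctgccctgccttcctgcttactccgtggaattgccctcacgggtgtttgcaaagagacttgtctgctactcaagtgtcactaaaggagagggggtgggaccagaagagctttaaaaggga
Over 250 upstream bases, TGACGTCA was present in 1.59% of 33469 rat promoters and, among the 8 members, in Areg alone, where it starts 91 bases before the transcript. The GC box was present in 30.5% of the promoters and in 6 of the 8 members (Egfr, Erbb2, Erbb4, Areg, Tgfa and Btc). TATAAA was present in 12.9% and only in Areg among the members, 61 bases before the start. The AP-1 motif TGAGTCA or TGACTCA was found in 4.05% of the promoters and in 0 of the 8 members. Such matches are letters in these windows only, and no binding was measured.

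Egfr and Erbb2, the receptors above background in lung, both had higher signals in lung tumor. The log2 signal of Egfr was 5.20, 4.74 and 5.08 in normal lung. In lung tumor it reached 6.47, 5.94 and 6.17. All tumor arrays were above all normal arrays. The difference was 1.19 (SE 0.18, 95% confidence interval 0.73 to 1.65), a 2.28-fold rise with an adjusted p of 0.00263 (limma, Benjamini-Hochberg over 12471 probes). Its signals were close to background, since the dimmest spots that count as well above background had log2 signals between 3.65 and 4.01 in normal lung. After the normexp background correction the difference was 0.56, below 2-fold, and its adjusted p was 0.0933 once the near-identical arrays were averaged.

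Erbb2, the partner without a ligand, had log2 signals of 5.75, 5.46 and 6.07 in normal lung. In lung tumor they were 6.86, 6.70 and 6.72, again without overlap. The difference of 1.00 (SE 0.17, adjusted p = 0.00356) corresponded to 1.999-fold and so fell just under the 2-fold limit. Erbb2 was called in 6 of 21 alternatives, 1 of which sets no fold limit, and its difference ran from 0.62 to 1.23 over them.

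Erbb3 and Erbb4 gave no lung signal that could be compared. The log2 signal of Erbb3 was between 1.45 and 1.63 in normal lung and 2.64, 1.41 and 1.41 in lung tumor, and its spot was not well above background on any lung array. Erbb4 lay between 1.22 and 1.27 on all 6. A signal not above background in 1 probe per gene sets no limit on the transcript without a measure of that probe's sensitivity.

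**Figure D1:**
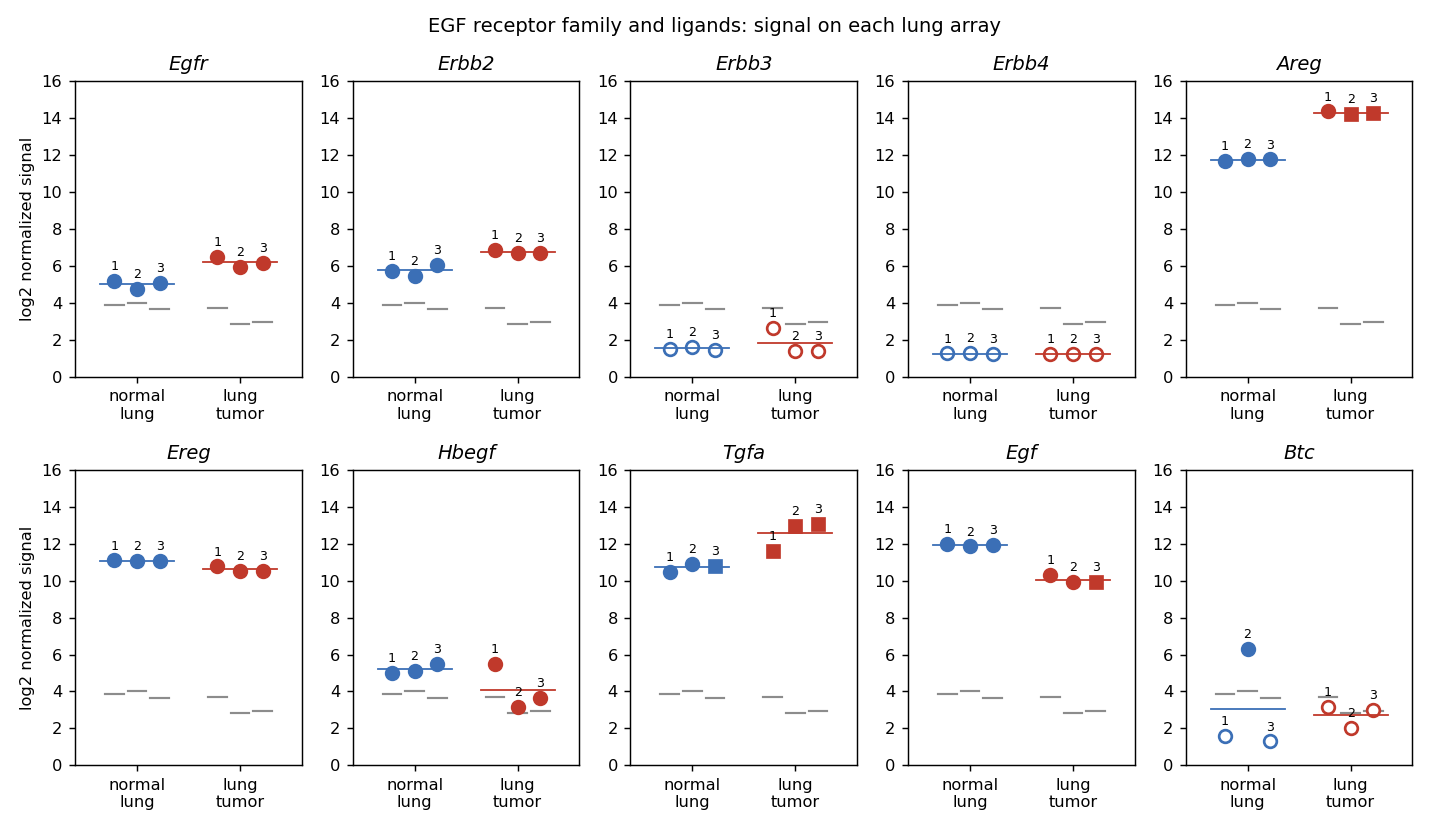
Log2 normalized signal of the 10 members on each lung array (vertical axis), with normal lung in blue and lung tumor in red, and the replicate number above each point. Filled points are well above background, open points are not, squares carry an outlier mark, grey ticks give the dimmest spot counted as well above background on that array and coloured lines are group means. Areg and Tgfa lie higher and Egf lower on all 3 tumor arrays, and Hbegf is lower only on tumor arrays 2 and 3.

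Areg, a ligand of Egfr made by epithelial cells during repair, had the largest change of the 7 members that passed. Its log2 signals were 11.70, 11.78 and 11.76 in normal lung and 14.36, 14.21 and 14.26 in lung tumor. The groups were far apart and each was tight, with an SD of 0.042 in normal lung and 0.078 in lung tumor. With marked spots kept (tumor arrays 2 and 3 were marked) the difference was 2.53 (SE 0.063, 95% confidence interval 2.37 to 2.69), which is 5.78-fold, with an adjusted p of 4.48e-06 (limma). The unmarked tumor array alone was 2.61 above the mean of normal lung. Areg passed the threshold in all 20 alternatives run with marked spots kept, between 2.39 and 2.61, with adjusted p up to 0.0283 when near-identical arrays were averaged. With marked spots left out as well as the arrays averaged, the adjusted p was 0.0680.

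Tgfa, the ligand first known from transformed cells, was also higher in lung tumor, but unequally. Normal lung arrays gave 10.47, 10.90 and 10.79, and tumor arrays 11.61, 12.98 and 13.08. Tumor array 1 lay 0.89 above the mean of normal lung and tumor arrays 2 and 3 lay 2.31 above it, so that the arrays of the other scan carried the larger rise. Normal array 3 and all tumor arrays were marked. With marked spots kept the difference was 1.84 (SE 0.42, 95% confidence interval 0.78 to 2.89), or 3.57-fold, with an adjusted p of 0.0116. With the scan as a block, which compares tumor array 1 with normal lung alone, it was 0.89 and below 2-fold. Averaging the near-identical arrays gave an adjusted p of 0.218, and by the paired form of the methods' test it was 0.0678. Of the markers tested with marked spots kept, 4 of 5 for proliferation were higher in lung tumor. So were 2 of 4 for club and airway cells and 1 of 7 for type 2 alveolar cells, with 0 lower in each list. Markers of other cells also rose, 2 of 2 for B cells and 3 of 5 for heart muscle, where 1 was lower. The part of these markers in the rise of Areg and Tgfa was not tested.

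Egf, the ligand that gave the family its name, fell. Its log2 signals were 12.00, 11.85 and 11.93 in normal lung and 10.29, 9.92 and 9.93 in lung tumor, with no overlap. The difference was -1.82 (SE 0.14, 95% confidence interval -2.19 to -1.46), or 3.54-fold lower, with an adjusted p of 0.000451. The marked spot of tumor array 3 was dropped from this fit, and with it kept the difference was -1.88 (adjusted p = 7.23e-05). On tumor array 1 alone, within the scan of the normal arrays, it was -1.64. The adjusted p was 0.0545 once near-identical arrays were averaged and 0.0784 in the paired form of the methods' test, and with marked spots kept these were 0.0417 and 0.0152. Without tumor array 1 or tumor array 2 only 1 unmarked tumor value remained and Egf was not tested.
Several markers of other cells were lower in lung tumor together with Egf, and others were not. With marked spots kept, 0 of 4 macrophage and 0 of 4 smooth muscle markers were lower. For fibroblasts and for T cells it was 1 of 6 each. Of the endothelial markers 4 of 4 tested with marked spots kept were lower, with a summed linear signal of 232611 to 242061 in normal lung and 47675 to 48357 in lung tumor. Of the type 1 alveolar markers 4 of 8 were lower (1157420 to 1210290 against 467528 to 480396). Of the liver markers 10 of 11 were lower, among them Ttr (-5.73), Cyp2e1 (-4.80) and Alb (-3.41), but 2 of the 10, Apoa2 and Apob, passed the filter only through the normal lung arrays and so had to be lower. The liver sum (124293 to 128551 against 76077 to 81924) understates these falls, since in lung tumor it is carried by Fgg, which had a difference of 0.75 and was not called. Of the red blood cell markers 4 of 5 were lower, with Alas2 at a log2 difference of -3.09 and a median of -2.06 over the 5, while their sum (214231 to 222582 against 130626 to 138895) is carried by Hbb, which had -0.57 and was not called. Of the neutrophil markers 2 of 4 were lower and 1 higher, with a sum of 12878 to 13802 in normal lung and 3329 to 4105 in lung tumor. Of the platelet markers 3 of 5 were lower, but Ppbp and Gp9 among the 3 likewise passed only through normal lung. The remaining one, Gp1bb, was above background on all 6 arrays and fell by 1.91, while the sum of the list, higher in lung tumor (4999 to 5318 against 7862 to 9142), is carried by Pf4, which had 0.98 and was not called. Among the defining endothelial markers Cdh5 was not above background on any lung array, and no liver marker was at background on all of them. Their part in the fall of Egf was not tested.

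Ereg, another ligand of Egfr, moved little. Its log2 signals of 11.09, 11.08 and 11.08 in normal lung and 10.77, 10.52 and 10.52 in lung tumor did not overlap, and the difference of -0.48 (SE 0.085, adjusted p = 0.00480) was 1.39-fold, under the 2-fold limit. In the RefSeq annotation Btc, Areg, Ereg and Epgn (epigen) follow one another on chromosome 14. Of these neighbours Areg was 5.78-fold higher in lung tumor, Ereg was 1.39-fold lower, Btc was not compared, and Epgn had no probe matched here.

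Hbegf, a ligand with affinity for heparin, split the tumor arrays. It had log2 signals of 5.02, 5.13 and 5.47 in normal lung and of 5.49, 3.15 and 3.64 in lung tumor. Tumor array 1 was at the level of the highest normal array, while tumor arrays 2 and 3 were below all of them. The difference was -1.11 (SE 0.63, 95% confidence interval -2.69 to 0.47), and the adjusted p of 0.169 did not pass. Without tumor array 1 it was -1.81 (adjusted p = 0.00194) and past the threshold, and on tumor array 1 alone it was 0.28. Btc was well above background on normal lung array 2 alone (6.28), and its other lung signals lay between 1.29 and 3.14.

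Taking the members together, 1 of the 5 tested with marked spots left out was higher (Egfr) and 1 was lower (Egf), while 13.5% of all 12471 probes tested were called higher and 15.5% lower, 29% in all. With marked spots kept, 3 of 7 were higher (Areg, Tgfa and Egfr) and 1 was lower (Egf), against 13.5% higher and 14.4% lower, or 27.9%, of 15803 probes. The groups did not overlap for 6 of the 7, as for 73% of all probes that passed. Of the ligands Areg and Tgfa rose while Egf fell.

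**Figure D2:**
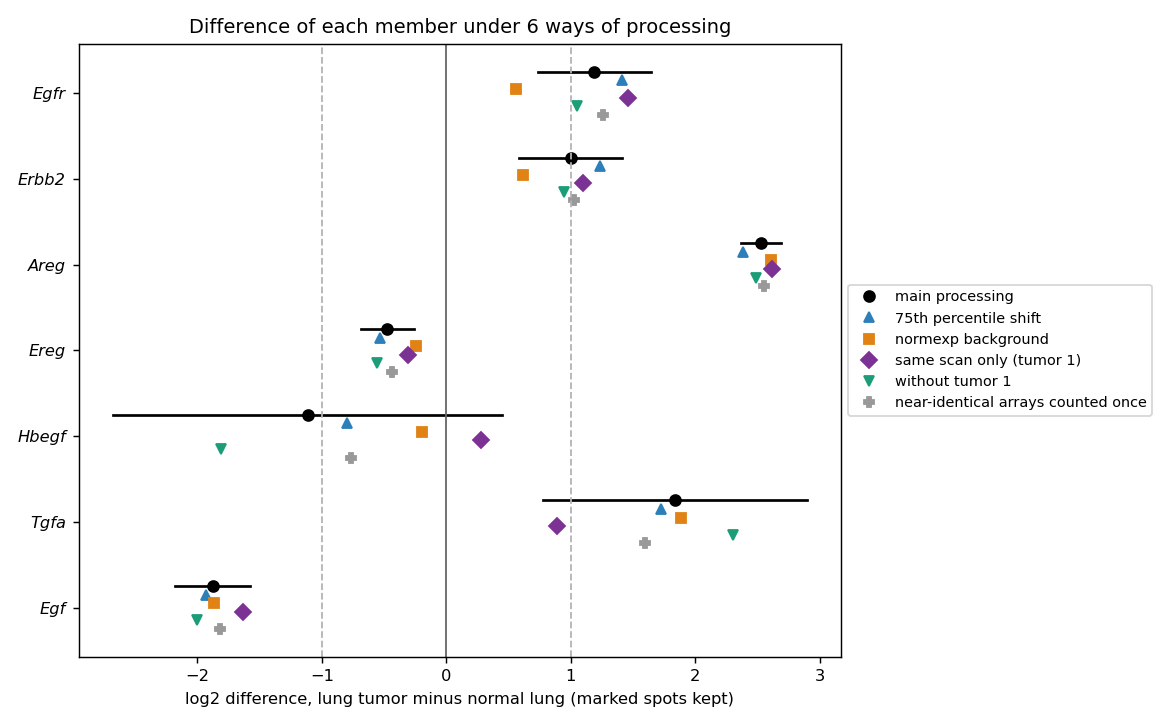
Log2 difference between lung tumor and normal lung (horizontal axis, marked spots kept) of the 7 members that passed the filter, under 6 ways of processing shown by symbol, with the 95% confidence interval of the first as a line and the 2-fold limits dashed. Areg stays between 2.39 and 2.61 in all 6, Egf stays at -1.64 or lower, and Hbegf lies on both sides of 0.

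The probes most like a member were found by the root mean square difference of centred log2 signals over the 6 lung arrays. The candidates were 10751 probes of other named genes. Nearest to Areg were Kif20b (0.021), Pou2af1 (0.042) and Gucy2g (0.048), and 94 probes lay within 0.2. Nearest to Tgfa were Pdcd2 (0.070), Itgal (0.088) and Phpt1 (0.095), and 13 probes lay within 0.2. Nearest to Egf were Srpx2 (0.027), Cavin3 (0.045) and Slc5a2 (0.048), with 355 probes within 0.2. Nearest to Egfr were Tuba3b (0.090), Krt23 (0.092) and Msrb1 (0.12), with 242 probes within that distance. For Hbegf, whose tumor arrays were split, no probe came within 0.2, and Stxbp5 (0.28), Pfdn6 (0.29) and Irgm (0.31) were nearest. With 6 arrays in 2 groups these patterns have few distinct shapes, and likeness is a description of them.

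Genes that act with the receptors were taken from 7 lists, by role. Of 107 listed genes 89 had a probe and 66 were tested with marked spots left out. Of these 8 rose, 12 fell and 46 did not pass, which is 30.3% called, beside 29% of all probes. The 8 include Crk, which passed the filter only through the tumor arrays and so had to differ. The median log2 difference was -0.09, against 0.07 over all probes tested. Of the 20 genes called, 8 kept their call in all 21 alternatives (Adam9, Rhbdl2, Timp3, Grb7, Cblc, Dusp1, Spry4 and Ccnd1). With near-identical arrays averaged, 5 were called higher and 6 lower.

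Ligand release showed the largest single change. Of 6 tested genes 2 rose and 2 fell. Adam9, a membrane metalloprotease, had log2 signals between 4.33 and 4.60 in normal lung and between 7.53 and 7.94 in lung tumor, a 9.80-fold rise (log2 difference 3.29, SE 0.14, adjusted p = 2.08e-05). Its normal lung signals were close to background, where the dimmest spots counted as well above it had 3.65 to 4.01. The size of the rise is therefore uncertain, while the call was kept in all 21 alternatives. Rhbdl2, a rhomboid protease, rose by 1.79. Adam19 had a difference of 1.70 with marked spots kept (adjusted p = 3.09e-05) and was not tested otherwise. Timp3, an inhibitor of ADAM proteases, fell from between 16.32 and 16.44 to between 14.21 and 14.33, 4.34-fold (adjusted p = 7.46e-06), and Cpe, a carboxypeptidase, fell by 1.21 on the log2 scale in a fit that dropped a marked spot of each group. Cpe kept its call in 12 of 21 alternatives. It had none with the scan as a block (-0.88), by the methods' t-test (adjusted p = 0.101) or its paired form (0.202), with no filter (0.0557) or with near-identical arrays averaged (0.149), and without normal lung array 1 or 2 or tumor array 1 or 2 it was not tested. The sheddases Adam10 and Adam17 had no probe matched here. Of the other ligands, Nrg2, a neuregulin that binds Erbb3 and Erbb4, was the only one tested, and it fell 2.99-fold (adjusted p = 6.61e-05) from log2 signals between 12.47 and 12.55 to between 10.86 and 10.96. A marked tumor spot was dropped from this fit, and without tumor array 1 or tumor array 2 Nrg2 was not tested.

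Among adaptors and proximal transducers 2 of 15 rose and 1 fell, and 1 of the 2, Crk, could be tested only because its tumor signal was high. Grb7, an adaptor that binds Erbb2, rose 3.11-fold from a mean log2 signal of 12.17 to 13.81 (adjusted p = 1.38e-05). Crk, an adaptor of the SH2 and SH3 type, was at background in all of normal lung, so that its difference is a bound of at least 2.01-fold, close to the limit. Crk kept its call in 11 of 21 alternatives. It was under 2-fold without normal lung array 1 (log2 difference 1.00), in the authors' values (0.95), after quantile normalization over all 8 arrays (0.95) and after normexp (0.22), and its adjusted p was 0.0542 in the paired form of the methods' test and 0.115 with near-identical arrays averaged. Without any one of the tumor arrays, or when all 6 arrays had to be above background, it did not pass the filter. Src, a kinase that acts with the receptors, fell 2.43-fold, from log2 signals between 6.03 and 6.80 to between 4.75 and 5.25 (adjusted p = 0.00682). Src lost its call in 4 of 21 alternatives. After normexp its difference was -0.49, and its adjusted p was 0.0642 with the scan as a block, 0.133 in the paired form of the methods' test and 0.0809 with near-identical arrays averaged. In the PI3K and Akt arm 0 of 6 tested genes were called by limma, with differences between -0.30 and 0.89. After the 75th percentile shift 1 of the 6 was called higher. At an unadjusted p under 0.05, 1 of the 6 was higher and 1 lower, and by the methods' t-test 0 were past the same limits.

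Of 12 inhibitors, ubiquitin ligases and phosphatases, 1 rose and 1 fell. Cblc, a ubiquitin ligase of the Cbl family, rose 3.88-fold from a mean log2 signal of 10.85 to 12.81 (adjusted p = 6.74e-06). Ptprk, a receptor phosphatase, had a log2 difference of -1.98 (adjusted p = 0.00189), but it was well above background on only 1 of 3 tumor arrays, so that the size of its fall was not measured. After normexp its difference was -0.46, and its adjusted p was 0.0692 in the paired form of the methods' test and 0.0772 with near-identical arrays averaged. Usp8, a deubiquitinase of the receptors, had a difference of 2.32 with marked spots kept and was not tested otherwise. Its tumor log2 signals of 10.48, 11.22 and 11.61 were all marked. With marked spots kept, 2 genes of this list were called higher, Cblc and Usp8. That count was 1 with near-identical arrays averaged and 1 in the paired form of the methods' test. Errfi1, a feedback inhibitor of Egfr, had a difference of -0.94, under the 2-fold limit. In receptor trafficking 1 of 11 genes passed. This was Cav1 (caveolin 1), which fell 5.03-fold from a mean log2 signal of 18.22 to 15.85 (adjusted p = 2.50e-05), with a marked tumor spot dropped from the fit. It was not tested without tumor array 1 or tumor array 2. Cav1 is abundant in type 1 alveolar and endothelial cells, and its fall came with that of the markers given above beside Egf. Their part in it was not tested.

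The transcripts known to be induced by EGF receptor signaling moved both ways, 3 higher and 6 lower of 15 tested, with a median difference of -0.57. Ccnd1 (cyclin D1) rose 5.69-fold, from log2 signals between 10.51 and 10.62 to between 12.83 and 13.29 (adjusted p = 3.74e-05). Fosl1, a transcription factor of the AP-1 group, rose by 1.40, and Phlda1 rose by 1.22. Spry4, a feedback inhibitor of receptor tyrosine kinases, fell 4.66-fold, from between 13.42 and 13.55 to between 11.22 and 11.33 (adjusted p = 6.74e-06). The other genes that fell were the immediate early genes Fos (-1.90), Ier2 (-1.31), Junb (-1.22) and Jun (-1.19), and Dusp1 (-1.73), a phosphatase of MAP kinases. After normexp Fos (-0.83), Fosl1 (0.69) and Phlda1 (0.96) were under 2-fold, and in the paired form of the methods' test Fosl1 had an adjusted p of 0.108. With near-identical arrays averaged, 1 gene of the list was called higher (Ccnd1) and 3 lower (Fos, Dusp1 and Spry4), and Ier2 (adjusted p = 0.0545), Phlda1 (0.0598), Junb (0.0625), Jun (0.0634) and Fosl1 (0.0773) were not called. With marked spots kept 4 of 20 were higher and 6 lower, with Myc as the addition (adjusted p = 0.000388), and the median was -0.09. When the near-identical arrays were averaged as well, 2 of these 20 were called higher and 4 lower. Proliferation markers were higher in lung tumor too (4 of 5 tested with marked spots kept, 5333 to 5897 in normal lung against 21708 to 29754 in lung tumor), and their part in the rise of Ccnd1 was not tested.

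**Figure D3:**
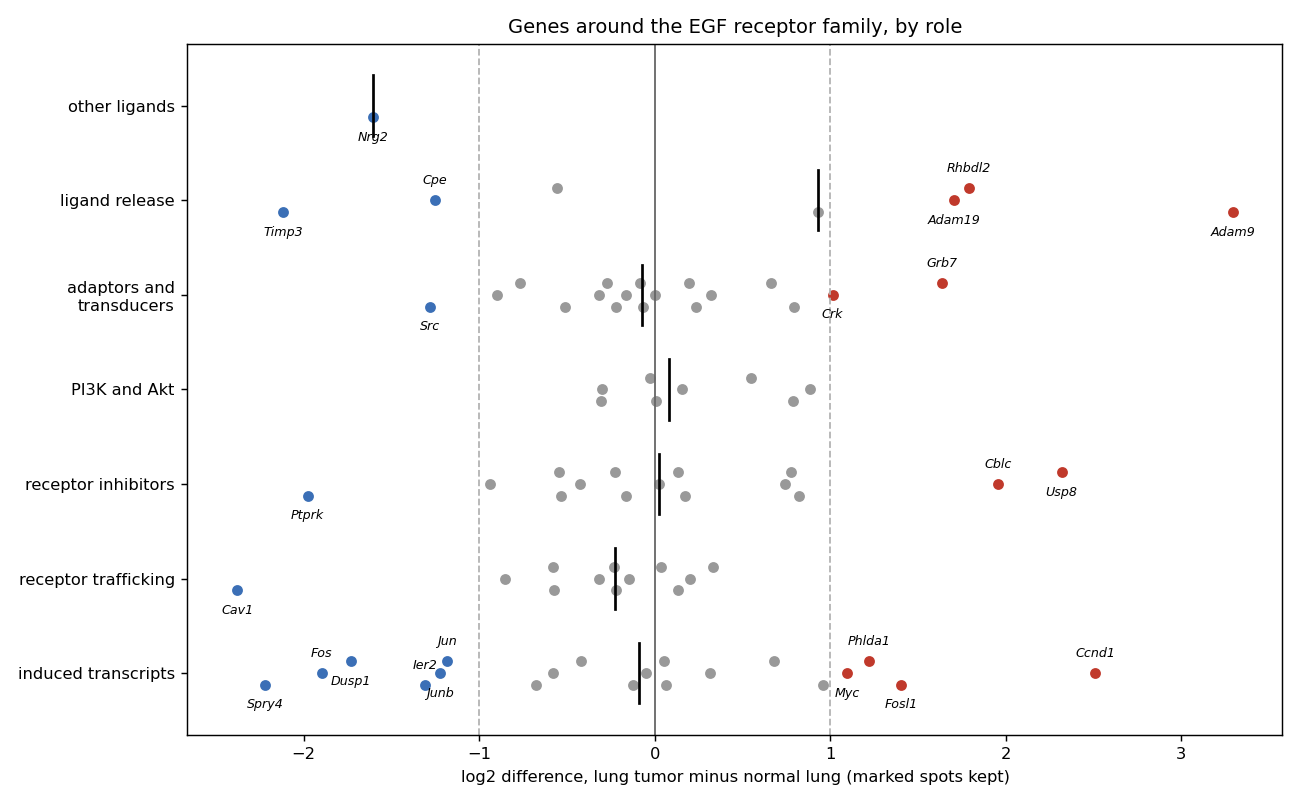
Log2 difference between lung tumor and normal lung (horizontal axis, marked spots kept) of the genes in each of the 7 roles, 1 point per gene, red for genes called higher, blue for genes called lower and grey for the rest, with the median of a role as a black bar and the 2-fold limits dashed. Adam9 at 3.29 is farthest to the right, and the induced transcripts spread to both sides.

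In blood, with 1 array per group, differences describe these 2 arrays and have no replicate check. Only 4 members were above background on either array, 3 in the control sample and 2 in the NNK sample. Their signals were quantile-normalized within the 2 blood arrays. Egf had a log2 signal of 7.35 in control blood and 3.00 in NNK blood, where it was not well above background, so that on this scale it was at least 8.64-fold higher in control blood. The size depends on the processing, with a measured log2 difference (NNK minus control) of -1.70 after normexp, below that bound, and -7.08 in the authors' values. All 5 platelet markers on the array were above background on both blood arrays and had higher signals in control blood, with a summed linear signal of 153728 against 88445 in NNK blood. For the neutrophil markers the sums were 14929 and 70519, carried by S100a8 (log2 signals 13.71 and 16.04). The other neutrophil markers were Csf3r (10.29 and 11.53), Cxcr2 (6.21 and 6.34) and Ncf1 (7.66 and 8.10). The part of these platelet and neutrophil markers in the difference of Egf was not tested. Erbb3, which was not above background in lung, had 5.34 in NNK blood and 1.95, not above background, in control blood, a bound of at least 2.07-fold on this scale. That bound is 1.05 on the log2 scale, and after normexp the difference of Erbb3 was 0.57, under it. The scanner's own errors on both spots give an SD of 1.45 for its measured difference of 3.39. No SD was computed for a bound. Egfr had 4.62 in control blood and 3.24 in NNK blood, again not above background. The bound was at least 1.30-fold, or 0.38 on the log2 scale. Its measured difference was -1.38, with a scanner error SD of 0.65. After normexp its difference was -0.40. Hbegf was above background on both, at 4.56 and 4.81, and its difference of 0.25 was smaller than its scanner error SD of 0.37. For Egf that SD was 0.71. Egf, Erbb3 and Egfr entered only through the array where each was brighter, so that no count of members is read from these differences, and Hbegf alone was above background on both arrays. Of all 14452 probes above background on either blood array and unmarked on both, 42.2% were at least 2-fold apart by measured signal.
The ligands Areg, Tgfa, Ereg and Btc and the receptors Erbb2 and Erbb4 were not above background on either blood array. With all 8 arrays normalized together, Egf had a log2 signal of 9.88 in control blood, between its levels in normal lung (10.89 to 11.03) and in lung tumor (9.17 to 9.50). Hbegf had 5.11 and 5.48 in control and NNK blood and 4.86 to 5.27 in normal lung. Areg stood at 10.75 to 10.83 in normal lung and 13.26 to 13.43 in lung tumor, against about the lowest signal of the array in both blood samples (1.54). Tissue and blood differ in the spread of all signals, which joint normalization forces to be the same, so these levels hold on that scale only.

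**Figure D4:**
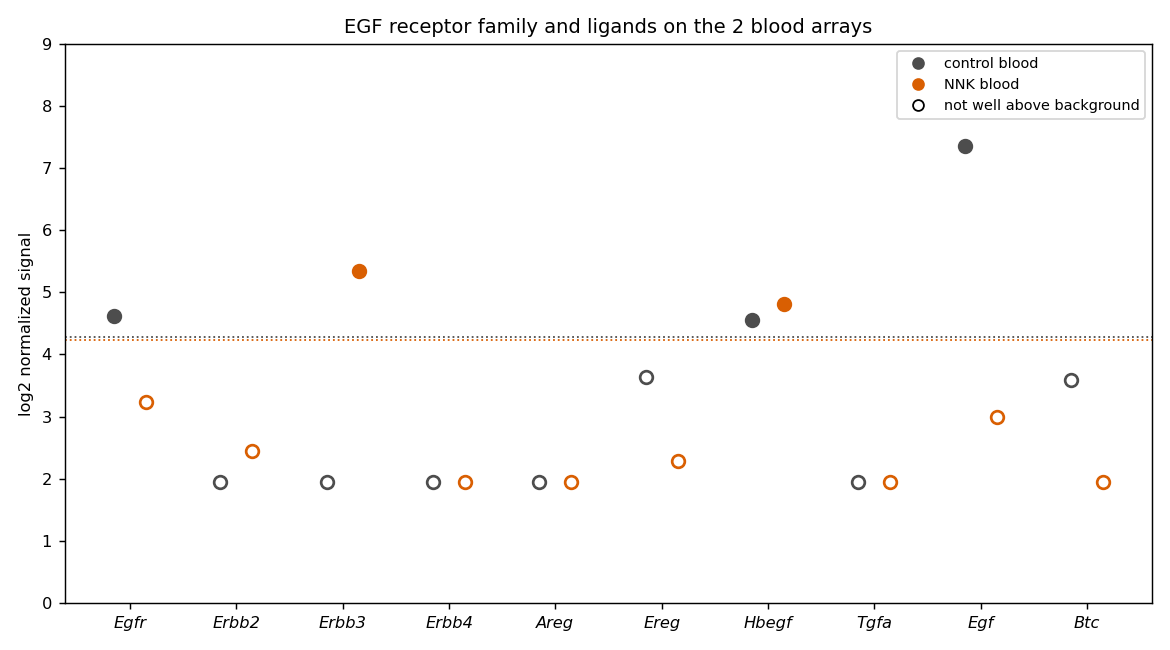
Log2 normalized signal of the 10 members on the control blood array (dark) and the NNK blood array (orange). Open points are not well above background, and dotted lines give the dimmest spot counted as well above background on each array. Egf in control blood at 7.35 and Erbb3 in NNK blood at 5.34 stand highest, and 6 members are open on both arrays.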

How the data were processed

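Total RNA of 3 normal lung tissues, 3 lung tumors and 2 blood samples was hybridised to a 1-colour array. The authors deposited intensities per spot from Agilent Feature Extraction 10.5.1.1 (as the submitters' processing notes name it), already background-subtracted and not normalized between arrays, and a table of log2 values that they had quantile-normalized over all 8 arrays. For NNK blood the description field names a tumor, but title, source and tissue name blood, which was followed.

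Of 42136 spots that are not controls, log2 processed intensities were quantile-normalized within the lung and within the blood arrays in R 4.3.3. Outlier-marked spots were dropped, and none was saturated. Of 15803 probes above background on at least 3 of 6 lung arrays, 12471 had at least 2 unmarked values per group. limma 3.58.1 (lmFit and eBayes, two-sided, group as the only term) called a probe at 2-fold and a Benjamini-Hochberg adjusted p of 0.05. The fit was tested on simulated data. Through RefSeq accessions 93.2% of 15323 mRNA probes were named. The number of arrays limits the precision.

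The members, 7 pathway lists and 15 marker lists were chosen with earlier results of these data known. All members are named, and of each role the called genes that rose and fell most, without overlap between groups and above background in both. The other pathway genes were named after their values were seen. For Areg and Tgfa the value with marked spots kept and its alternatives were chosen after seeing the marks. A fold against a group not above background is a bound, in which the dimmer group is set, array by array, to its own signal or to the dimmest spot well above background, whichever is higher.

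Alternatives changed the scaling, background, filters, marks, test or blocks, or left out a lung array.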

Additional observations from a re-analysis of the deposited data

How the results depend on the processing

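The 1 member called higher in lung tumor became 2 after the 75th percentile shift, with the scan as a block and at the adjusted p alone, 3 in the authors' values and with marked spots kept, and 0 after normexp (2 at an unadjusted p under 0.05, neither 2-fold) and with near-identical arrays counted once (3 at an unadjusted p under 0.05 and 2-fold). The 1 member called lower became 0 in the paired form of the methods' test and with arrays counted once, where 1 was lower at an unadjusted p under 0.05 in the latter and 2 in the former, and 2 at the adjusted p alone. Leaving out each lung array gave 1 to 2 higher and 0 to 1 lower members, the 0 without tumor array 2, where Egf could not be tested. Without tumor array 1 Egf could not be tested either, and the 1 lower member was Hbegf. The 3612 probes called in all became 2224 after normexp, 1475 with arrays counted once and 8123 at the adjusted p alone. The 8 pathway genes called higher became 5, 5 and 18 under the same settings, and the 12 called lower became 6 with arrays counted once and 27 at the adjusted p alone. The sources call the normal lung matched to the tumors without tying the replicate numbers to animals, and the deviations of same-numbered arrays from their group means had correlations of 0.14, -0.04 and 0.16 over 11359 probes, with tumor array 2 closest to normal lung array 3 (0.14), so a pairing by number is not established. The replicate block on these numbers gave 1 higher and 1 lower member and 3559 probes called in all, and changed no member's call. Hbegf turned to 0.28 with the scan as a block. In blood, 3 members were at least 2-fold apart by measured signal, a count that supports nothing since each passed only through its brighter array. It was 1 after normexp and 0 when both arrays had to be above background, where 1 member was left. Signals near background limit Egfr, Erbb2 and Hbegf in lung, pathway genes such as Adam9, and every member in blood. The cause of these shifts was not tested.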
